A study of Mus musculus with 9 samples.

Results

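The guanylate-binding proteins are a family of large GTPases, and the 10 Gbp genes described here were taken by gene name (Gbp2, Gbp2b, Gbp3, Gbp4, Gbp5, Gbp6, Gbp7, Gbp8, Gbp9 and Gbp10) from a table of 21951 mouse genes. In BV2 cells given 10 Gy of X-rays, transcripts of 6 of them, Gbp2, Gbp3, Gbp5, Gbp6, Gbp7 and Gbp9, were higher than in unirradiated cells. Apart from Gbp6, with 52 reads against 2, the rises ran from 4.22-fold (Gbp9) to 12.6-fold (Gbp5). Of all 11295 tested genes, 22.1% were called higher and 44.3% in either direction. Gbp5, Gbp6 and Gbp9 were tested only because groups other than control were higher, so this count is no support for a rise of the family. The call of Gbp9 hung on single libraries. The other 4 genes had between 0 and 6 reads in all libraries together. With triol given before the dose, no tested Gbp gene differed from irradiated cells beyond the test's threshold, and only 0.106% of all tested genes did. The intervals of Gbp5, Gbp6 and Gbp9 were wide in this comparison.

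Guanylate-binding proteins bind GTP, hydrolyse it and assemble into polymers on the membranes of vacuoles that hold microbes and on the surface of bacteria in the cytosol. There they help to break the membrane open and bring microbial lipopolysaccharide to the non-canonical inflammasome. In macrophages and microglia their genes are strongly induced by interferon-gamma and also by type I interferon, through transcription factors such as STAT2, IRF9 and IRF1, which bind the interferon-stimulated response element (ISRE) and the gamma-activated site (GAS) of promoters. In the mouse the genes form a cluster on chromosome 3 and another on chromosome 5.

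Transcripts were counted by RNA sequencing in 9 libraries of BV2, an immortalised line of wild-type mouse microglia, 3 libraries in each of 3 groups. Control cells received vehicle, which is 20% hydroxypropyl-β-cyclodextrin, without irradiation. Irradiated cells were given the vehicle 30 min before 1 dose of 10 Gy X-rays, and triol-treated irradiated cells were given the steroid 5α-androst-3β,5α,6β-triol at 10 µM 30 min before the same dose. No vehicle is named for the triol libraries. All 3 of their titles carry this compound name, while the treatment entries of replicates 2 and 3 put its last hydroxyl at 7β and 8β. No group had triol alone. The time between irradiation and RNA extraction was not given in the sources used here. BV2 is a transformed line, and the labels do not call the replicates separate cultures, so each p-value reflects the spread between libraries, which may be technical. These are bulk libraries, in which more cells with a transcript and more transcript per cell cannot be told apart.

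The promoters are shown with their letter matches to the ISRE and the GAS, the elements named above. RefSeq promoter windows of GRCm38.p6, from 250 bases before to 50 after a gene's start, were at hand for 5 members, all of the chromosome 3 cluster and all on the plus strand, with 6 windows because Gbp3 has 2 starts. Gbp4, Gbp6, Gbp8, Gbp9 and Gbp10 had no entry. Capitals mark each match to the ISRE core (GAAA, any 2 bases, GAAA) on either strand and to the GAS TTCNNNGAA, whose form is the same on both strands. Each stretch ends before the first annotated exon of its window, and that of Gbp5 lies in an intron of a longer Gbp5 transcript, which starts further upstream. Gbp2 is shown as 30 bases around its match, which lies within an annotated exon. The stretches are chr3:142496684-142496899 for Gbp5, chr3:142530086-142530335 for Gbp7, chr3:142559794-142560025 for Gbp3, chr3:142594597-142594846 for Gbp2b and chr3:142620594-142620623 for Gbp2.
Gbp5: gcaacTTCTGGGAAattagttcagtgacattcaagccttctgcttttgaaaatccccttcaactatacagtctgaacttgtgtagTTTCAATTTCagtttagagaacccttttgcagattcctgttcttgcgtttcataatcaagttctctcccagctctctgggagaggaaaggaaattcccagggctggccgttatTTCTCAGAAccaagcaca
Gbp7: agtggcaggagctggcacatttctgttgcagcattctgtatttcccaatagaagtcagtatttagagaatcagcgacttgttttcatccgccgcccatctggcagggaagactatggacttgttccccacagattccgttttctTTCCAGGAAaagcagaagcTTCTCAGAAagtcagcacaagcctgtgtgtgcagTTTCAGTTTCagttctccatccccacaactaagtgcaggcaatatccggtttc
Gbp3: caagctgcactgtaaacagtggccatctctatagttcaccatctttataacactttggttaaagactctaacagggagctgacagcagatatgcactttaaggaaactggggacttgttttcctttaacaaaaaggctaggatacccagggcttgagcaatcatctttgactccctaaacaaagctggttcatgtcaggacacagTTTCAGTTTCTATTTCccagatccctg
Gbp2b: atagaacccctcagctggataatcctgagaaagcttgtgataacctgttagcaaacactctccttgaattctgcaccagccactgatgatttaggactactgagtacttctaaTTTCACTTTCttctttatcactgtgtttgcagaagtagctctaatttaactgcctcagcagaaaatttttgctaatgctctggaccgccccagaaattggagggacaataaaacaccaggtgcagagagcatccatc
Gbp2: actcttttagTTTCACTTTCactgtcttaa

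The ISRE core stood in 5 of the 6 Gbp windows, and so at least once in each of the 5 genes, compared with 3.44% of all 32851 promoter windows of the same 300 bases and 3.99% of 27025 genes. It began 165 bases before the start in Gbp5, 53 in Gbp7, 137 in Gbp2b and 59 in Gbp2. In Gbp3 a pair of overlapping matches began 45 and 39 bases before the first start, and the window of its second start held no match. The GAS motif stood in 2 of the 6 windows, those of Gbp5 (245 and 52 bases before the start) and Gbp7 (106 and 87 bases), compared with 8.3% of all windows. No GAS match overlapped an ISRE match. These matches describe the letters and do not show that a factor bound there. Gbp2b, whose window holds an ISRE core, had 0 reads in every library.

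Libraries held 13879062 to 18944051 counts, and 11295 genes had enough counts to be tested. All 13 microglia and macrophage markers were detected, and control libraries had a summed level of 2860 to 3020 CPM (normalised read counts after TMM scaling), against 2160 to 2230 CPM with the dose alone and 2190 to 2240 CPM with triol and the dose. Of the defining markers, Csf1r stood at 519 CPM in control cells, while Tmem119 and P2ry12, which mark microglia in the brain, stood at 1.12 and 0.772 CPM. Markers of T and NK cells, the main makers of interferon-gamma, summed to 0 to 0.172 CPM over all libraries, and 4 of the 7 in the table (Cd3e, Nkg7, Ncr1, Gzmb) were at 0 throughout. Summed markers moved with irradiation for neurons (0.13 to 0.687 CPM in control, 1.21 to 2.12 in irradiated), astrocytes (0.326 to 0.866 and 1.96 to 2.19, with Aqp4 at 0) and fibroblasts (0 to 0.115 and 0.523 to 0.752). The endothelial sum was lower with the dose (317 to 342 CPM in control, 240 to 248 in irradiated), with Flt1 making up 99.0% to 99.9% of it and Cldn5 at 0. Their part in the Gbp results was not tested.

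The comparison of irradiated with control cells asked how the dose changed these transcripts. Gbp7, Gbp3 and Gbp2 were the abundant members and rose about alike, and they exceeded the filter on low counts in all 9 libraries. Gbp7 (chr3:142530342-142550149), whose protein is recruited to vacuoles of the parasite Toxoplasma gondii, had 3.90, 4.58 and 3.39 CPM in the 3 control libraries and 21.1, 24.6 and 21.7 in the irradiated ones. Each irradiated library lay far above every control library. The rise was 2.49 on the log2 scale (SE 0.14, 95% interval 2.20 to 2.78), or 5.63-fold, with an edgeR quasi-likelihood adjusted p of 7.1e-15.

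Gbp3 (chr3:142560026-142573209), also found on such vacuoles, had 1.73, 3.26 and 2.22 CPM in control and 17.2, 14.9 and 11.4 in irradiated libraries. The lowest irradiated library was well above the highest control library, although the values spread more widely within each group than those of Gbp7. The log2 fold change was 2.56 (SE 0.18, 95% interval 2.18 to 2.94, edgeR adjusted p = 1.7e-11). Gbp2 (chr3:142620602-142638008), which carries a lipid anchor and is needed for resistance to Toxoplasma, had 1.52, 2.29 and 1.04 CPM in control and 8.21, 8.78 and 6.93 in irradiated libraries. Again the groups did not overlap. Its log2 fold change was 2.27 (SE 0.19, 95% interval 1.88 to 2.66, edgeR adjusted p = 5.7e-13).

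**Figure D1:**
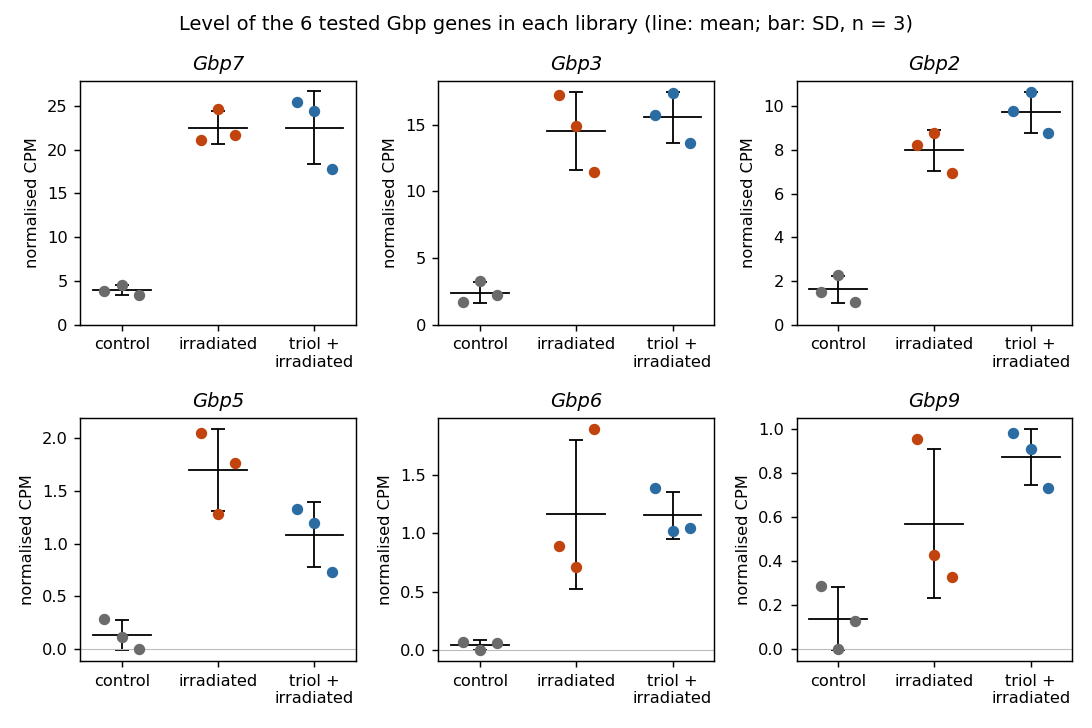
Level of each of the 6 tested Gbp genes in CPM after TMM (vertical axis) in the 3 libraries of each group (points), with the group mean and SD (bars). In every panel all irradiated and triol-treated libraries lie above all control libraries, and the last pair of groups overlap each other.

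Gbp5, Gbp6 and Gbp9 were rare. In control cells none of their libraries reached the filter's 0.643 RPM (reads scaled to the library's total count alone), so they were tested only because other groups were higher: counts, ranks and medians over the tested members are therefore no support for a rise of the family. Gbp5 (chr3:142493978-142522344), which is linked to assembly of the NLRP3 inflammasome, had 4, 2 and 0 reads in control and 30, 18 and 27 in irradiated libraries. Every irradiated library exceeded every control library, and the log2 fold change was 3.65 (SE 0.52, 95% interval 2.60 to 4.70, edgeR adjusted p = 2e-07). Over the summed reads the RPM ratio was 13.6, with an exact 95% interval of 5.96 to 38.2 that covers counting error only. Without control replicate 1 the log2 fold change was 4.64.

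Gbp6 (chr5:105270702-105293698, minus strand) had 1, 0 and 1 reads in control and 13, 10 and 29 in irradiated libraries. The irradiated libraries were all higher, with replicate 3 more than 2 times as high as the others. The 2 control reads give the size of the change a wide interval: the RPM ratio was 28.3 (exact 95% counting interval 7.45 to 240.0), and the fitted log2 fold change was 4.55 (SE 0.71, edgeR adjusted p = 1.1e-06), or 3.96 without control replicate 2. Gbp9 (chr5:105077630-105139539, minus strand), another protein seen on Toxoplasma vacuoles, had 4, 0 and 2 reads in control and 14, 6 and 5 in irradiated libraries. The lowest irradiated library, with 0.327 CPM, was only just above the highest control library, with 0.289. Its log2 fold change of 2.08 (SE 0.69, 95% interval 0.68 to 3.48, edgeR adjusted p = 0.013) did not pass without control replicate 2 (1.43, adjusted p = 0.11) or without irradiated replicate 1 (1.49, adjusted p = 0.16), and was 3.07 without control replicate 1.

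All 6 tested members were thus called higher and had groups that did not overlap. Of all 11295 tested genes, 22.1% were called higher and 22.2% lower (44.3% in either direction), 25.2% had irradiated libraries all above the control ones, and 1.31% had a log2 fold change of at least 2, as these 6 did. By size of the log2 fold change Gbp6 ranked 16 among the tested genes, Gbp5 31, Gbp3 94, Gbp7 100, Gbp2 117 and Gbp9 137. As a description, the median over the 6 was 2.52, beside 0.01 over all tested genes. Of the 6, 3 were tested only because they were high after the dose, with or without triol. Gbp9 reached the filter's level in 1 irradiated library and in all 3 triol-treated ones, which are outside this comparison.

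**Figure D2:**
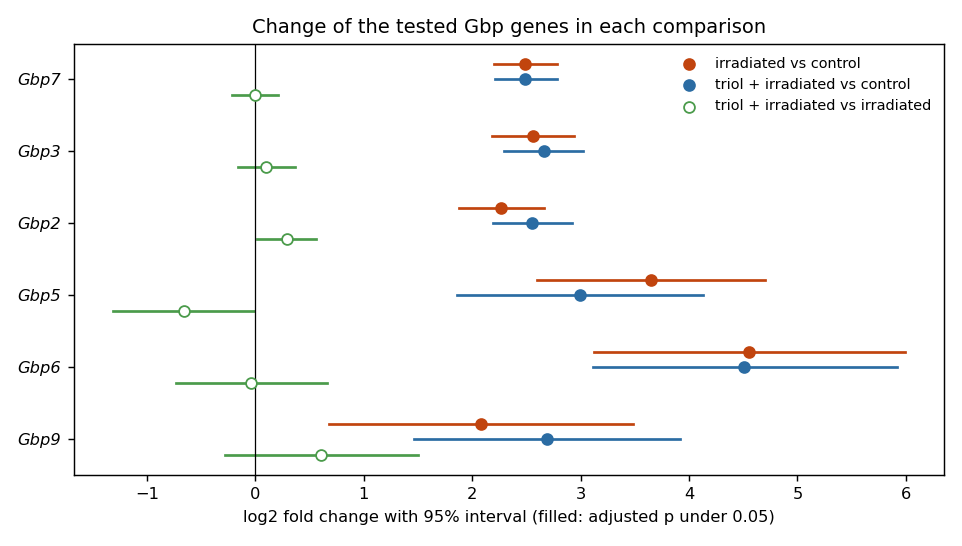
Log2 fold change (horizontal axis) with its 95% interval for the 6 tested Gbp genes in each of the 3 comparisons, filled where the edgeR adjusted p was under 0.05. Both comparisons with control lie above 0 for every gene, and the comparison of triol-treated with irradiated cells lies between -0.66 and 0.61 with no filled point.

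The 4 remaining members could not be tested. Gbp4 (chr5:105115767-105139586) had no read in a control library, 3, 0 and 1 reads after the dose alone and 1, 1 and 0 after triol and the dose. Gbp8 (chr5:105014150-105139540) had a single read, in control replicate 2. Gbp2b (chr3:142594847-142619179) and Gbp10 (chr5:105215699-105239533) had 0 of 144585407 counts, which allows a level of up to 0.0207 RPM. These limits cover counting error only.

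How far the members can be told apart by their reads differed from member to member. In GENCODE M21 no 100-base stretch of a Gbp2 or Gbp2b transcript occurred in a transcript of another gene, and the share was 0.694% for Gbp3, 0.142% for Gbp5 and 10.0% for Gbp7. On chromosome 5 the share was 1.64% for Gbp4, 1.65% for Gbp9 and 4.39% for Gbp8. It was 64.5% for Gbp6 and 73.5% for Gbp10, which share 36.3% and 60.1% of their stretches with each other. Both also lie in part within exons of Gm43302 on the same strand (29.0% and 46.3% of their exonic bases), a gene with 0 reads throughout. The counting may have split or dropped such reads, so the low counts of Gbp6 and the absence of Gbp10 reads are uncertain. The related Gbp11, which shares stretches with Gbp4 and Gbp6, was not in the table of counts under that name.

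Per length, the abundant members stood in the order Gbp3, Gbp7, Gbp2 in each group. In irradiated cells Gbp3 had 4.45 ± 0.894 CPM per kb of exon (mean ± SD, n = 3), Gbp7 4.0 and Gbp2 3.17 CPM per kb. The libraries of Gbp3 and Gbp7 overlapped in all 3 groups, and those of Gbp7 and Gbp2 were apart in the irradiated group and overlapped in the other 2. A wide gap followed, with Gbp5 at 0.256, Gbp6 at 0.196 and Gbp9 at 0.11 CPM per kb, and it separated all libraries of Gbp2 from those of the next member in every group. Among all tested genes the 3 abundant members stood at percentiles 10.8 to 11.8 of the per-length level in control cells and 27.5 to 34.7 in irradiated cells, so they remained below the median gene (7.93 CPM per kb).

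**Figure D3:**
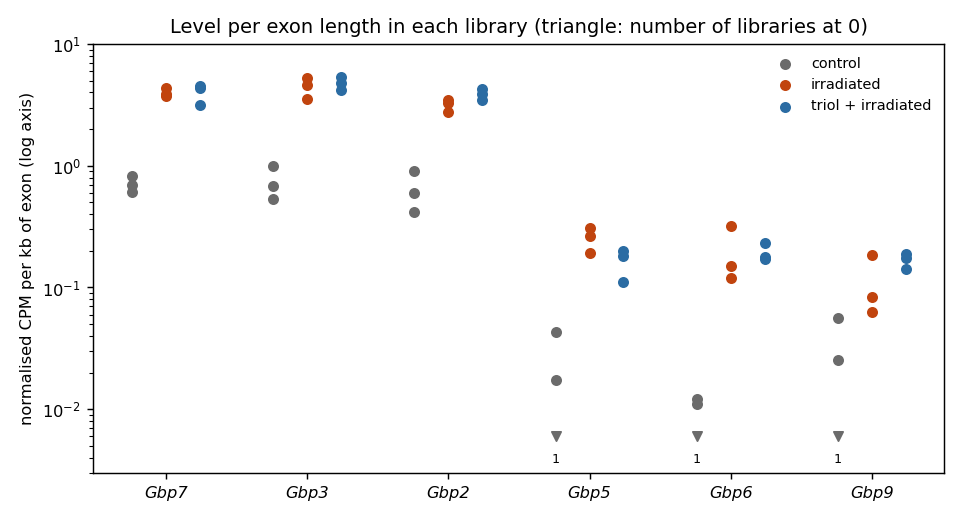
Per-length level in CPM per kb of exon (vertical axis, logarithmic) of the tested Gbp genes in each library, by group. Gbp3, Gbp7 and Gbp2 lie together between 3.17 and 4.45 CPM per kb on average in irradiated cells, and Gbp5, Gbp6 and Gbp9 at or below 0.256.

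The summed level of the family was 8.32 ± 1.79 CPM in control cells, 48.5 ± 3.81 after the dose alone and 51.0 ± 7.23 after triol and the dose (mean ± SD, n = 3), which is 5.83-fold and 6.13-fold the control value. Shares were taken of a different sum, the level per kb of exon, which averaged 2.14 CPM per kb in control and 12.2 in irradiated cells. Of that per-length sum Gbp3 held 34.3% in control and 36.3% in irradiated cells, Gbp7 33.4% and 33.0%, and Gbp2 29.3% and 26%. The chromosome 3 members held 94.8% to 99.4% of the family's reads in every library.

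The comparison of triol-treated irradiated with irradiated cells asked whether the compound changed the response to the dose. None of the 6 tested Gbp genes was called by the edgeR test or by limma-voom, beside 0.106% of all tested genes (12 of 11295) called by edgeR. DESeq2 gave no adjusted p-value for any member here and so could call none. At an unadjusted p under 0.05 there were 2 members, Gbp2 and Gbp5, which lay on opposite sides, beside 7.66% of all genes, and no member had groups that did not overlap, beside 13.2%. This comparison shares the irradiated libraries with the one above.

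Gbp7 had 25.4, 24.4 and 17.8 CPM in the triol-treated libraries, and these spread on both sides of the irradiated values. Its log2 difference was -0.00, with a 95% interval of -0.21 to 0.21. Gbp3 had 15.7, 17.4 and 13.6 CPM, again within or close to the irradiated range, with a difference of 0.10 (-0.16 to 0.37).

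Gbp2 had 9.77, 10.6 and 8.77 CPM, of which the lowest library lay just under the highest irradiated one. Its log2 difference was 0.29 (SE 0.13, 95% interval 0.02 to 0.56, edgeR adjusted p = 0.63). Gbp5 had 23, 21 and 14 reads, or 1.33, 1.2 and 0.735 CPM, beside 2.05, 1.29 and 1.76 in irradiated libraries. Here the triol-treated libraries tended to the lower side with an overlap of 1 library, and the log2 difference was -0.66 (SE 0.32, 95% interval -1.31 to -0.01, edgeR adjusted p = 0.64).

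Gbp6 (24, 18 and 20 reads) and Gbp9 (17, 16 and 14 reads) overlapped the irradiated libraries as well. Their log2 differences were -0.04 (-0.73 to 0.66) and 0.61 (-0.28 to 1.5), intervals too wide to tell a modest change from none. Over the 6 genes the median was 0.05, beside 0.00 for all tested genes. Summed markers were higher with triol and without overlap for hepatocytes (0.915 to 2.87 CPM without it, 9.05 to 9.53 with it), neurons (1.21 to 2.12 and 2.5 to 3.0), fibroblasts (0.523 to 0.752 and 1.1 to 2.1) and endothelium (240 to 248 and 254 to 264). Their part in this comparison was not tested.

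Triol-treated irradiated cells were also compared with control cells, whose libraries this comparison shares with the first. All 6 tested members were called higher, beside 21.5% of all genes called higher and 43.3% called in either direction. Their libraries all lay above the control ones, beside 25.5% of all genes. Here too Gbp5, Gbp6 and Gbp9 were tested only because groups other than control were high. These counts are therefore no support for a rise of the family. Log2 fold changes were 2.55 for Gbp2 (SE 0.18), 2.66 for Gbp3 (SE 0.18), 2.49 for Gbp7 (SE 0.14), 2.99 for Gbp5 (SE 0.56), 4.51 for Gbp6 (SE 0.70) and 2.69 for Gbp9 (SE 0.61). The edgeR adjusted p-values ran from 3.1e-15 to 0.00037. Gbp9, whose call in irradiated cells hung on single libraries, was called here with each library left out in turn (log2 fold change 2.04 without control replicate 2 to 3.67 without control replicate 1). The same control libraries moved Gbp5 to 3.98 (without replicate 1) and Gbp6 to 3.92 (without replicate 2).

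Genes around the clusters showed much smaller changes than the Gbp genes. The chromosome 3 cluster spans 144.0 kb and the chromosome 5 cluster 279.5 kb. Within 500 kb of them lie 12 other genes of the table, of which 8 were tested. In irradiated against control cells 3 rose and 2 fell, all by small amounts: BC005561 by 0.38 on the log2 scale (edgeR adjusted p = 0.0055), Pkn2, a protein kinase, by 0.15, Lrrc8d, a subunit of a volume-regulated anion channel, by 0.14, while Pdlim5 fell by 0.19 and Lrrc8c by 0.17. Of all tested genes, 44.3% were called in either direction. Kyat3, the nearest tested neighbour of the chromosome 3 cluster at 63.0 kb, had -0.15 (adjusted p = 0.39). The lowest Gbp value was 2.08.

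**Figure D4:**
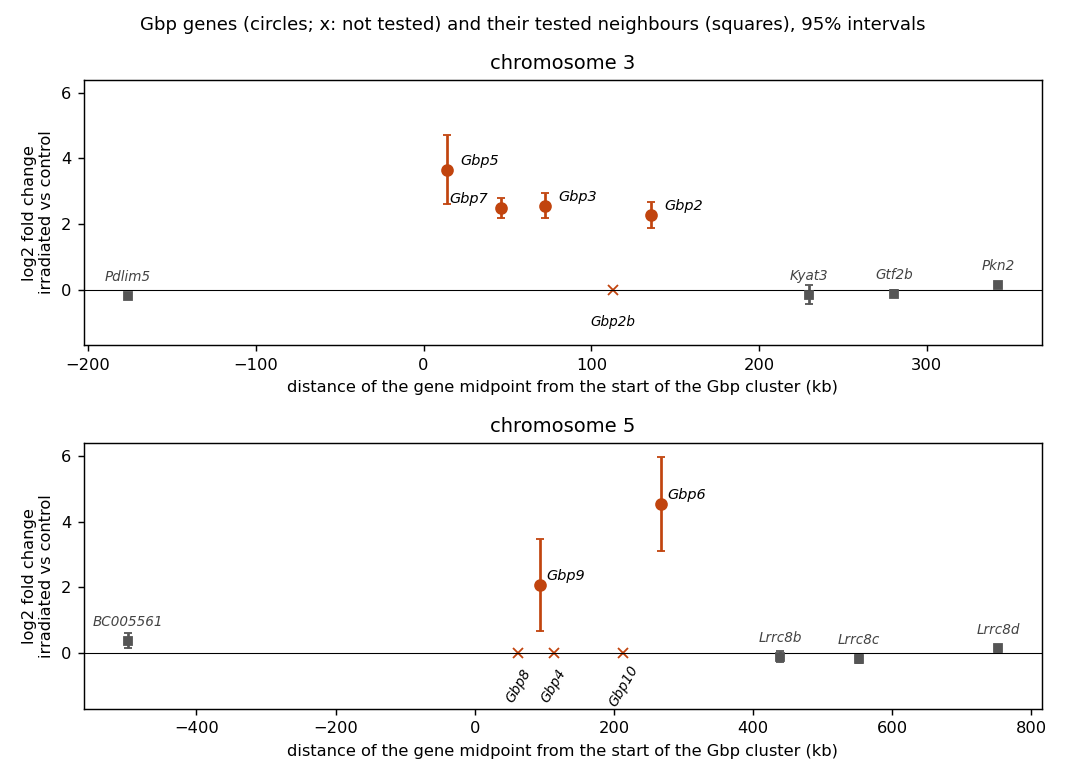
Log2 fold change of irradiated against control cells (vertical axis, 95% intervals) by the distance of each gene's midpoint from the start of its Gbp cluster in kb, for tested Gbp genes (circles), Gbp genes not tested (crosses, drawn at 0) and tested neighbours (squares). The Gbp genes lie at 2.08 to 4.55 and their neighbours at -0.19 to 0.38.

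Genes that act before the Gbp genes moved by smaller amounts in irradiated against control cells. Of 12 tested receptors and JAK-STAT genes, 3 rose and 4 fell, with a median of -0.00. Beside this list and those below, 22.1% of all tested genes were called higher and 22.2% lower. Stat2, a transcription factor of the type I pathway, rose from 30.9 to 40.2 CPM (log2 fold change 0.38, SE 0.07, edgeR adjusted p = 3.8e-05). The receptor genes Ifnar1 and Ifngr2 fell by 0.31 and 0.18, and Il10rb by 0.23. Jak1 (0.07, adjusted p = 0.068), Jak2 (0.11, adjusted p = 0.12), Ifngr1 (-0.12, adjusted p = 0.067) and Ifnar2 (-0.07, adjusted p = 0.29) did not pass.

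Of 8 tested interferon regulatory factors, 4 rose and 2 fell, with 3 called higher by DESeq2. Irf7, which amplifies type I interferon, rose by 1.44 (SE 0.12), Irf1, a direct activator of Gbp promoters, by 0.75 (SE 0.08) and Irf9 by 0.56 (SE 0.06), while Irf8, a lineage factor of microglia, fell by 0.43 (SE 0.05) and Irf5 by 0.18. Of 9 feedback genes 1 rose and 3 fell. Usp18, which shuts off the type I receptor, rose by 1.55 (SE 0.06), Ptpn1 and Socs3 fell by 0.41 and 0.40, and Socs1 had 0.87 (edgeR adjusted p = 0.088).

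Interferon transcripts themselves were scarce. Among the 21 interferon genes counted, 16 had 0 reads in all libraries, and none was tested. Ifnb1, which encodes interferon-beta, had 0 reads in control cells, 17 in irradiated cells (4 to 7 a library) and 20 in triol-treated irradiated cells (6 to 7 a library). Against a floor of 3 counts over the control group the ratios are 6.17 and 5.89. They take the reads of the irradiated groups as exact, so they are not lower limits. Ifnab had 0, 7 and 8 reads in the same groups. Ifng, which encodes interferon-gamma, had 0 reads in all 9 libraries, which allows up to 0.0207 RPM. Of the genes that interferon-gamma is best known for, 4 of 12 were tested and 3 rose: H2-DMa by 1.01, Acod1 by 0.60 and Cd74, the class II invariant chain, by 0.48. Ciita, the master activator of class II genes, had 2 reads in control and 12 in irradiated cells (RPM ratio 6.53, exact 95% counting interval 1.45 to 60.1) and was not tested.

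The related GTPases with a place beside the Gbp proteins on vacuoles were mostly higher as well. Of 6 tested immunity-related GTPases 5 rose and 1 fell, with a median of 1.70. Among them Tgtp2 and Iigp1 averaged 0.23 and 0.0481 CPM in control cells, under the filter's 0.643 RPM. They were tested only because other groups were higher, so this count and median are no support for a rise of the list. Irgm1 rose from 28.4 to 94.0 CPM (log2 fold change 1.73, SE 0.07), Irgm2 by 1.67 (SE 0.10) and Igtp by 1.46 (SE 0.10). The effector GTPases Tgtp2 and Iigp1 rose by 2.76 (SE 0.43) and 4.03 (SE 0.78), the latter from 2 control reads to 36 (RPM ratio 19.6, exact 95% counting interval 5.04 to 168.0). Irgq fell by 0.17 (edgeR adjusted p = 0.034), a call that upper quartile scaling and DESeq2 did not give. Of 5 tested large GTPases outside the family, Mx1, an antiviral dynamin relative, rose by 2.89 (SE 0.24), Gvin1 rose by 0.57 and Atl3 fell by 0.14.

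Of 9 tested inflammasome and pyroptosis genes, which act after the Gbp proteins, 4 rose and 2 fell, with a median of 0.05. Casp4, the mouse caspase-11 that senses lipopolysaccharide, rose from 9.65 to 18.2 CPM (log2 fold change 0.92, SE 0.11, edgeR adjusted p = 1.2e-09). Il1b rose by 0.72 and Casp1 by 0.30, while Gsdmd, the pore-forming substrate of these caspases, fell by 0.24, and Ninj1 fell by 0.13 (adjusted p = 0.035). Aim2 had 0.04 (adjusted p = 0.52). In triol-treated against irradiated cells no gene of any of these lists was called.

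**Figure D5:**
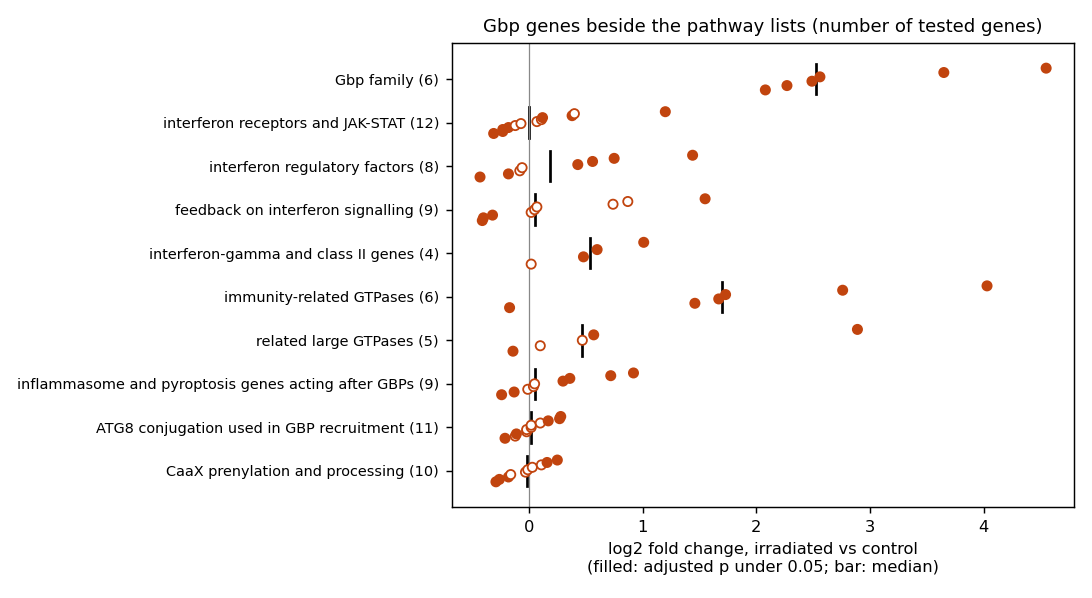
Log2 fold change of irradiated against control cells (horizontal axis) for each tested gene of the Gbp family and of each pathway list, filled where the edgeR adjusted p was under 0.05, with the list's median as a bar. The Gbp median is 2.52, over 6 genes of which 3 were tested only because they were high after the dose, with or without triol. That of the immunity-related GTPases is 1.70, with Tgtp2 and Iigp1 tested for the same reason. The other medians lie between -0.02 and 0.54.

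The genes whose levels ran most like the family were looked for by Pearson's r over the 9 libraries, between a gene's log2 CPM and the mean of the 6 tested members after scaling each. They were Igtp (0.999), Slfn3 (0.998), Usp18 (0.997), Parp14 (0.997) and Rsad2 (0.996). Since the 9 values fall into low control and high irradiated libraries, 978 genes outside the family had an r above 0.9. Against the mean of the other 5 members, Gbp7 had 0.982, Gbp2 0.961, Gbp3 0.956, Gbp6 0.937, Gbp5 0.925 and Gbp9 0.812.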

How the data were processed

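Gene counts of 9 BV2 libraries were analysed. The deposited values are whole-number read counts for each gene, made by the authors without normalisation. Tools listed per the submitters' processing notes are fastp 0.18.0, FastQC, STAR 2.7.1a and featureCounts of Subread 1.6.3 on GRCm38. Not given in the sources used here were their annotation, strand option and handling of reads with several matches. Each of the 21951 identifiers was found in GENCODE M21, from which positions (1-based, GRCm38), exon lengths and overlaps were taken.

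Groups came from the sample titles. Genes were filtered with filterByExpr, which kept 11295, and scaled by TMM, and the 3 comparisons were tested with the robust quasi-likelihood F test of edgeR 4.0.16 (R 4.3.3) in 1 fit over the 9 libraries. P-values are two-sided and adjusted by Benjamini-Hochberg over the tested genes, with a threshold of 0.05, and the script was tested on simulated data. SE was derived from the F statistic. CPM is scaled after TMM and RPM by the total count alone, and counting intervals are exact at 95%. Upper quartile scaling, DESeq2 1.42.0, limma-voom (limma 3.58.1), no filter, fits of the 2 compared groups, the replicate block and leaving out each library were the alternatives, with another length and another GAS spacing. Named genes were all members, a fixed set from the pathway lists, up to 2 called members per list with the largest rise and fall, the 5 genes most like the family, and neighbours that were called or adjacent, of which 1 list gene is not reported here. The members and lists were chosen with earlier results of these data known.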

Additional observations from a re-analysis of the deposited data

How the results depend on the processing

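Member values kept their direction and their side of the threshold in 69 of 71 alternative values for irradiated against control cells, in all 72 for triol-treated against control cells, and in 59 of 66 for triol-treated against irradiated cells, where 7 changed sign and no member was called. DESeq2 is not among the 66, since it gave no adjusted p-value for any member there. The exceptions in the first were Gbp9 without control replicate 2 or irradiated replicate 1. With each library left out its log2 fold change ran from 1.43 to 3.07, and 5 to 6 members were called. With only the 2 groups fitted, Gbp9 was not tested. Near-zero values that changed sign with a library left out were Gbp7 (-0.10 to 0.14), Gbp3 (-0.05 to 0.24) and Gbp6 (-0.29 to 0.51), and limma-voom gave 0.07 for Gbp6. Genes called between triol-treated and irradiated cells numbered 12, but 36 with no filter, 22 with only the 2 groups fitted, 19 with DESeq2, and 6 to 9 with each library left out. The cause was not tested. The labels do not say that replicate numbers pair the libraries, and the deviations of same-numbered libraries correlated by -0.0522 to 0.0442, with 4 of 9 libraries closest to their own number. With the replicate block 5005, 22 and 4876 genes were called in irradiated against control, triol-treated against irradiated and triol-treated against control cells, and no member's call changed. Per length of the longest transcript, Gbp3, Gbp5 and Gbp6 stood at 5.42, 0.557 and 0.448 CPM per kb in irradiated cells. A GAS with 4 free bases stood in 1 of the 6 Gbp windows. Alternatives chosen after seeing the data changed counts of list members. Upper quartile scaling called 5 receptor and JAK-STAT genes higher, and both it and DESeq2 called 0 immunity-related GTPases and 1 inflammasome gene lower. DESeq2 called 3 interferon regulatory factors higher. Upper quartile scaling also called 3 large GTPases outside the family higher and 2 prenylation genes lower. Few reads limit Gbp5, Gbp6 and Gbp9, with 2 to 6 over the control group.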

Other observations

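Genes that load guanylate-binding proteins onto membranes moved little in irradiated against control cells. Of 11 tested genes of ATG8 conjugation, which guides GTPases to vacuoles, 3 rose and 2 fell, with a median log2 fold change of 0.02. Beside this list and the next, 44.3% of all tested genes were called in either direction. Gabarapl1 rose by 0.28 (SE 0.06, edgeR adjusted p = 0.00026), from 44.8 ± 1.49 CPM in control to 54.2 ± 4.08 in irradiated libraries (SD, n = 3), and Atg12 rose by 0.27 (SE 0.05). Atg7, the activating enzyme of the pathway, fell by 0.21 (SE 0.05) and Gabarap by 0.11 (SE 0.04).

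Of 10 tested genes of prenylation and its later steps, which attach the lipid anchor of some family members, 2 rose and 3 fell, with a median of -0.02. Rabggtb rose by 0.25 (SE 0.06) and Zmpste24, a protease of the CaaX pathway, by 0.16 (SE 0.04), while Rap1gds1 fell by 0.29 (SE 0.04) and Pde6d, a carrier of prenylated proteins, by 0.26 (SE 0.08). Fntb, a subunit of farnesyltransferase, had 0.11 (edgeR adjusted p = 0.2), and Pggt1b, a subunit of the enzyme for the longer lipid, had -0.01 (adjusted p = 0.86). No gene of either list was called between triol-treated and irradiated cells.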
